A study of Arabidopsis thaliana with 20 samples.

Results

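Small RNAs of 21 nt from the stem of a hairpin RNA against EIN2 were examined in 15 libraries of Arabidopsis thaliana. They are the class cut by DICER-LIKE 4 (DCL4). They were taken as all reads listed in the 21-nt columns of the deposited tables. Sense reads were those on the stem the hairpin carries, and antisense reads were those on the unaltered stem. This gave 1886992 reads of 21 nt out of 3748603 stem reads of 18 to 25 nt, or 50.3%. Of the 21-nt reads, 1240026 were sense and 646966 were antisense.

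All plants were of the Columbia ecotype, were grown for 3 weeks and were sampled whole. All carried a transgene for a hairpin RNA against EIN2, so no library gives the level of such reads without a hairpin. The WT hairpin has a perfectly paired stem (7 libraries), and the G:U hairpin has a stem that holds G:U wobble pairs (8 libraries). A first table holds libraries 15 and 17 (WT) plus 12 and 13 (G:U), with no second mutation, called Columbia here. A second table holds WT library 15 and G:U libraries 12 and 13, titled Col-0. It also holds the mutants nrpd1a and ocp11, with 2 libraries per hairpin each. NRPD1a is the large catalytic subunit of Pol IV, a plant RNA polymerase that starts siRNA production at silent DNA, and ocp11 is a mutant of ARGONAUTE4. The labels give neither the promoter of the transgenes nor whether the library numbers mark independent transgenic lines. The genotype entry of both ocp11 samples titled as G:U says WT hairpin, and both were used as G:U, as titled, since the table fills the GU stem for both. In 3 samples the target gene entry names another EIN gene, and their titles, which say EIN2, were followed. Which arm of the G:U hairpin carries the altered bases is not in the labels, but the read counts place them on the sense arm. In the G:U libraries only 0.0979% to 1.43% of the sense reads of the class were on the WT stem, and the rest were on the GU stem. Of the antisense reads of the class, only 0.127% to 0.556% were on the GU stem, and the rest were on the WT stem.

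In plants, a long double-stranded RNA such as a hairpin stem is cut by several Dicer-like enzymes side by side. DCL4 releases 21-nt duplexes, DCL2 22-nt duplexes and DCL3 24-nt duplexes. One strand of a 21-nt or 22-nt duplex is usually loaded into ARGONAUTE1, which cuts matching mRNAs, whereas 24-nt siRNAs bind ARGONAUTE4 and guide DNA methylation. Only the antisense strand of the stem can pair with the EIN2 mRNA. EIN2 is a membrane protein required for the response to ethylene, and its gene, AT5G03280, occupies positions 787428 to 793404 of chromosome 5 (plus strand, TAIR10.1). The labels do not say which stretch of it forms the stem, and the tables count reads by length and strand only, so siRNA sequences and positions are not reported.

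The 21-nt reads per library ranged from 8104 to 469102, and the stem reads of 18 to 25 nt from 12567 to 1015676. The tables hold no library totals, so every value below is a ratio within a library and no amount was compared between libraries. The 95% Wilson interval of the antisense percent of the 21-nt reads was widest in nrpd1a WT library 3, at 56.3% to 58.4%. These intervals cover counting error only. In whole plants, a shift in how many cells hold a class of siRNA cannot be told apart from a shift per cell. The 21-nt class was the largest on both strands of every library, in 30 of 30 combinations. It held 41.8% to 64.5% of all stem reads in the WT libraries and 40.6% to 56.8% in the G:U libraries, so the hairpins overlapped in its share of all reads.

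The strands of the 21-nt class were close to balanced or leaned to antisense with the WT hairpin and leaned strongly to sense with the G:U hairpin. Columbia WT library 15 had 110355 antisense and 38366 sense reads, which is 2.88 antisense reads per sense read. Columbia WT library 17 had 22998 and 25768, a ratio of 0.893. These WT libraries lie on opposite sides of balance, and their ratios differ more than those of any other group. Columbia G:U library 12 had 8386 antisense and 46485 sense reads, a ratio of 0.180. G:U library 13 had 16254 and 110191, a ratio of 0.148. Both G:U libraries lie well below both WT libraries of the same table.

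In the nrpd1a mutant, WT library 2 had 12196 antisense and 9935 sense reads of 21 nt (ratio 1.23). WT library 3 had 4648 and 3456 (ratio 1.34). Both leaned slightly to antisense. G:U library 2 had 6042 and 29304 (ratio 0.206), and G:U library 18 had 8735 and 32604 (ratio 0.268). The hairpins again did not overlap. The deposited table gives WT library 3 another number than its title, and it was assigned as the last library left in its group.

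In the ocp11 mutant, WT library 10 had 79838 antisense and 80380 sense reads of 21 nt (ratio 0.993), and WT library 11 had 117845 and 113953 (ratio 1.03). These are the most evenly balanced libraries of the series. G:U library 4 had 55040 and 240896 (ratio 0.228), and G:U library 6 had 86436 and 382666 (ratio 0.226). Both G:U libraries nearly coincided and lay far below both WT libraries.

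In the Col-0 plants of the second table, WT library 15 had 94882 antisense and 48592 sense reads of 21 nt, a ratio of 1.95. G:U library 12 had 10968 and 32025 (ratio 0.342), and G:U library 13 had 12343 and 45405 (ratio 0.272). The WT library is again above both G:U libraries. Over all 15 libraries, the lowest WT ratio (0.893) was 2.61 times the highest G:U ratio (0.342).

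The comparison of hairpins asked how the strands of the 21-nt class differ between a perfectly paired and a G:U stem. The hairpins also differ in stem sequence and in the stem on which sense reads were counted, so pairing alone was not tested. The 21-nt strand ratio was 6.21-fold lower with the G:U than with the WT hairpin, from geometric means of 0.206 against 1.28 antisense reads per sense read over the Columbia, nrpd1a and ocp11 backgrounds. On the log2 scale this is a difference of -2.63 ± 0.59 (SD over 3 backgrounds). It passed the threshold of an adjusted p under 0.05 (two-sided exact permutation test, stratified by background, p = 0.00926, which is the least possible here, adjusted p = 0.0401 over 13 measures). The fold was 9.82 in Columbia, 5.47 in nrpd1a and 4.46 in ocp11, and whether the fold differs between backgrounds was not tested. In Col-0, which the test left out because its numbers repeat those of Columbia, it was 6.40. With Col-0 as a further stratum the log2 difference was -2.65 (exact stratified permutation p = 0.00154, adjusted p = 0.0201). Within the second table alone it was -2.43, where the exact test gave the same p of 0.00926 and an adjusted p = 0.120, since fewer of the other measures had a low p there. Without Columbia G:U library 12 or ocp11 WT library 10 it was -2.68 or -2.64 (exact test, adjusted p = 0.0602 each). A single background with 2 libraries per hairpin cannot go below p = 0.333 in the exact test.

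The strand shift at 21 nt was then set beside that at the other lengths. Averaged over Columbia, nrpd1a and ocp11, the antisense-per-sense ratio was lower with the G:U hairpin by 4.10-fold at 20 nt, 6.21-fold at 21 nt, 2.99-fold at 22 nt and 3.96-fold at 24 nt. At 23 nt the log2 difference was 0.07, so that length lacked the shift in these 3 backgrounds. The shift at 21 nt was larger than that at 23 nt, with a log2 difference between the shifts of -2.71 (exact stratified permutation p = 0.00926, adjusted p = 0.0401). The 21-nt shift was also larger than that at 24 nt, with a difference of -0.65 (exact stratified permutation p = 0.0185, adjusted p = 0.0481). The excess over 22 nt (-1.05, exact stratified permutation p = 0.0278, adjusted p = 0.0516) and over 20 nt (-0.60, exact stratified permutation p = 0.0463, adjusted p = 0.0752) did not pass.

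The excess over 24 nt rested on the choice of wild-type libraries. In Col-0 the strand ratio was 6.40-fold lower with the G:U hairpin at 21 nt, 6.39-fold at 23 nt and 21.8-fold at 24 nt, so there the ratio differed more at 24 than at 21 nt, which was not tested. With Col-0 in place of Columbia the 21-nt excess over 24 nt was 0.30 on the log2 scale, the opposite sign. Without Columbia WT library 15 it was -0.46 (exact test adjusted p = 0.0802). Leaving out Columbia G:U library 12 or 13, WT library 2 or G:U library 2 of nrpd1a, or ocp11 WT library 10 also ended this call, at -0.74, -0.56, -0.62, -0.60 and -0.67. The excess over 23 nt was -1.57 with Col-0 in place of Columbia (exact stratified permutation p = 0.0278, adjusted p = 0.120). Without Columbia G:U library 12 or ocp11 WT library 10 it was -2.58 or -2.73 (exact test adjusted p = 0.0602 each).

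Within a library, 21-nt siRNAs of the WT hairpin were more antisense than their neighbours of 20 and 22 nt. The 21-nt strand ratio was above the 20-nt ratio in 7 of 7 WT libraries, by 0.58 ± 0.60 on the log2 scale (SD, n = 7, exact sign-flip permutation test, two-sided, p = 0.0156, adjusted p = 0.0417 over 8 tests). It was above the 22-nt ratio in 7 of 7, by 0.97 ± 0.67 (SD, n = 7, exact sign-flip permutation p = 0.0156, adjusted p = 0.0417). A p of 0.0156 is the smallest that 7 libraries allow, and with any WT library left out no exact p can go below 0.0312 and neither call was made (adjusted p = 0.0625 to 0.0781). The largest gaps were in Columbia WT library 15, at 1.87 above 20 nt and 2.39 above 22 nt. Without it the means were 0.36 and 0.73, and the smallest gaps over all WT libraries were 0.08 and 0.43. Number 15 enters once per table, and with both averaged the means were 0.51 and 0.89 and did not pass (exact sign-flip permutation p = 0.0312, adjusted p = 0.0625 each).

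The WT hairpin showed no such gap to 23 nt that passed the test, at 0.27 ± 0.82 (SD, n = 7, exact sign-flip permutation p = 0.500). The gap to 24 nt was 0.72 ± 0.67 (SD, n = 7, exact sign-flip permutation p = 0.0312, adjusted p = 0.0625), with 21 nt higher in 6 of 7 libraries. The exception was Col-0 WT library 15, where antisense reads per sense read were 1.95 at 21 nt, 2.19 at 24 nt and 3.56 at 23 nt. Among the 5 lengths from 20 to 24 nt, the 21-nt ratio was the highest in 5 WT libraries, rank 2 in 1 library and rank 3 in 1.

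With the G:U hairpin the 21-nt class had the highest strand ratio in none of the 8 libraries, and 23 nt did in all 8. The 21-nt ratio lay below the 23-nt ratio, with a log2 difference of -1.91 ± 0.81 (SD, n = 8, exact sign-flip permutation p = 0.00781, the smallest possible, adjusted p = 0.0417). Antisense reads per sense read ranged from 0.148 to 0.342 in G:U libraries at 21 nt and 0.501 to 1.55 at 23 nt, without overlap. The gaps to 20 nt (0.07 ± 0.27) and 22 nt (0.05 ± 0.385) did not pass (SD, n = 8 each, exact sign-flip permutation p = 0.492 and 0.703). The gap to 24 nt was 0.57 ± 0.69 (SD, n = 8, exact sign-flip permutation p = 0.0391, adjusted p = 0.0625), with 21 nt higher in 7 of 8 libraries. It was largest in Col-0 G:U libraries 12 and 13, which had 0.112 and 0.0900 antisense reads per sense read at 24 nt. ocp11 G:U library 4 was the exception, at 0.260 at 24 nt against 0.228 at 21 nt, and without it the gap was 0.67 and passed (exact sign-flip permutation, adjusted p = 0.0312). Numbers 12 and 13 each enter these tests once per table. With same-numbered libraries averaged, the difference from 23 nt was -2.02 and did not pass (exact sign-flip permutation p = 0.0312, adjusted p = 0.0625).

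On the antisense strand, the 21-nt class stood out less from 23 and 24 nt with the G:U than with the WT hairpin over Columbia, nrpd1a and ocp11. In Col-0 the ratio to 24 nt had the opposite order. These ratios rearrange the counts behind the strand shifts above. The excess of the 21-nt shift over another length is the antisense log2 difference to that length minus the sense one. Calls on the excess and on the antisense ratio are therefore not independent. Antisense reads of 21 nt per antisense read of 24 nt, the DCL3 product, were 34.9 and 7.57 in Columbia WT libraries 15 and 17 and 5.59 and 4.12 in G:U libraries 12 and 13. In nrpd1a they were 6.93 and 7.16 in WT libraries 2 and 3 and 2.88 and 3.50 in G:U libraries 2 and 18. In ocp11 they were 4.21 and 2.73 in WT libraries 10 and 11 and 3.09 and 1.99 in G:U libraries 4 and 6. The hairpins did not overlap in Columbia or nrpd1a and did in ocp11. The mean log2 difference was -1.12 ± 0.66 (SD over 3 backgrounds), a ratio 2.17-fold lower with the G:U hairpin (exact stratified permutation p = 0.0185, adjusted p = 0.0481). The Col-0 values were 1.64 in WT library 15 against 3.95 and 4.23 in G:U libraries 12 and 13. The call ended with Col-0 added as a stratum, at -0.51 (exact test, adjusted p = 0.395), and within the second table (-0.10, exact test adjusted p = 0.824). It also ended without any one of the same 6 libraries as above, at -1.19 to -0.75, the smallest difference being without Columbia WT library 15.

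Of the 4 antisense ratios, that to 23 nt differed most between hairpins, a length with no single Dicer-like enzyme assigned to it. Antisense reads of 21 nt per antisense read of 23 nt were 53.5 and 13.6 in Columbia WT libraries 15 and 17 and 2.35 and 4.44 in G:U libraries 12 and 13. They were 35.1 and 40.1 with the WT and 3.42 and 3.57 with the G:U hairpin in nrpd1a, while ocp11 had 15.2 and 11.3 with the WT and 6.43 and 1.59 with the G:U hairpin. The hairpins did not overlap in any of these 3 backgrounds. The ratio was 7.17-fold lower with the G:U hairpin, a log2 difference of -2.84 ± 0.72 (SD over 3 backgrounds, exact stratified permutation p = 0.00926, adjusted p = 0.0401). In Col-0 it was 4.79 in WT library 15 and 4.64 and 4.24 in the G:U libraries, a log2 difference of -0.11. Within the second table the mean was -1.86 (exact test adjusted p = 0.120), and without Columbia G:U library 12 or ocp11 WT library 10 it was -2.69 or -2.77 (exact test adjusted p = 0.0802 and 0.0602).

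Against 22 nt, the product of DCL2, the antisense ratio was 23.7 and 8.27 in Columbia WT libraries 15 and 17 and 5.86 and 7.11 in G:U libraries 12 and 13. In nrpd1a it was 13.9 in both WT libraries and 5.77 and 5.78 in the G:U libraries. In ocp11 it was 9.31 and 8.51 in WT libraries 10 and 11 and 8.68 and 8.76 in G:U libraries 4 and 6. The nrpd1a libraries of a hairpin nearly coincided, and the ocp11 hairpins overlapped. The mean log2 difference of -0.80 ± 0.68 did not pass (SD over 3 backgrounds, exact stratified permutation p = 0.0278, adjusted p = 0.0516). It lies at the edge of the threshold: it passed as a percent, with both stems summed and with run 1 alone, and in Col-0 the difference had the opposite sign, at 4.28 in the WT library against 5.31 and 4.64. Against 20 nt the antisense ratio was 3.78 to 8.75 in the WT and 3.45 to 7.13 in the G:U libraries, with a log2 difference of -0.40 ± 0.45 (SD over 3 backgrounds, exact stratified permutation p = 0.102, adjusted p = 0.132).

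On the sense strand none of the 4 ratios of the 21-nt class to another length passed the test between hairpins. Sense reads of 21 nt per sense read of 24 nt were 8.47 and 4.08 in Columbia WT libraries 15 and 17 and 3.53 and 3.79 in G:U libraries 12 and 13. They were 4.39 and 5.19 with the WT and 2.51 and 2.50 with the G:U hairpin in nrpd1a, while ocp11 had 2.97 and 1.74 with the WT and 3.52 and 1.94 with the G:U hairpin. In Col-0 they were 1.84 for the WT and 1.29 and 1.40 for the G:U libraries. The G:U libraries lay lower in Columbia, nrpd1a and Col-0 and overlapped the WT libraries in ocp11. The log2 difference was -0.47 ± 0.59 (SD over 3 backgrounds, exact stratified permutation p = 0.157, adjusted p = 0.186).

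The sense ratio of 21 to 22 nt was 4.53 and 4.58 in the Columbia WT libraries and 5.91 and 6.54 in the G:U libraries. In nrpd1a it was 7.23 and 6.66 against 8.61 and 7.38, while the ocp11 values were 6.44 and 5.71 for WT and 7.75 and 5.45 for G:U libraries. The G:U libraries were higher in Columbia and nrpd1a without overlap, while ocp11 G:U library 6 was the lowest of its background. The log2 difference was 0.25 ± 0.18 (SD over 3 backgrounds, exact stratified permutation p = 0.0556, adjusted p = 0.0802). The call was made with Col-0, at 3.19 against 4.39 and 4.29, as a further stratum, at a mean of 0.30 (exact test, adjusted p = 0.0321), and without ocp11 G:U library 6 (0.33, exact test adjusted p = 0.0241). The sense ratios to 20 nt (2.17 to 6.75 in WT, 3.12 to 6.24 in G:U libraries) and to 23 nt (8.73 to 43.7 and 7.82 to 21.9) overlapped between the hairpins over all libraries. Their log2 differences were 0.20 ± 0.49 and -0.13 ± 0.64 (SD over 3 backgrounds, exact stratified permutation p = 0.287 and 0.648). Within these 3 backgrounds the ratio to 20 nt did not overlap in 2, being higher for G:U in Columbia and lower in nrpd1a. The ratio to 23 nt did not overlap in nrpd1a alone, at 33.9 and 43.7 with the WT and 21.9 and 20.6 with the G:U hairpin.

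Lengths of 18, 19 and 25 nt were described only. Sense reads of 21 nt per sense read of 19 nt numbered 2.44 to 9.70 in the WT and 9.60 to 20.9 in the G:U libraries, and per sense read of 18 nt 9.59 to 27.5 and 20.6 to 40.9. The lowest of these WT values were both in Columbia WT library 15. On the antisense strand the ratio to 19 nt was 9.61 to 18.0 in WT and 7.61 to 20.9 in G:U libraries, and that to 18 nt was 14.3 to 43.8 and 23.4 to 38.2, so the hairpins overlapped. Reads of 25 nt were rare, with 49.5 to 363 antisense reads of 21 nt for each in WT and 65.0 to 194 in G:U libraries. These ratios were not tested.

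The mutant libraries show the ratios of the 21-nt class in mutants of RNA polymerase IV or ARGONAUTE4, which act with 24-nt siRNAs. Ratios within a library cannot show whether the amount of the class depends on either. Among the libraries of the second table the 21-nt class was less antisense in the mutants than in Col-0 with both hairpins. All 8 mutant libraries had a lower 21-nt strand ratio than every Col-0 library of the same hairpin. With the WT hairpin the geometric mean was 1.28 in nrpd1a and 1.01 in ocp11 (n = 2 each) against 1.95 in the only Col-0 library. For the G:U hairpin the means were 0.235 and 0.227 against 0.305 (n = 2 each). The log2 difference was -0.59 for both mutants together, -0.77 for WT libraries and -0.40 for G:U libraries (two-sided exact permutation test within hairpins, p = 0.0133, which is the least possible here, adjusted p = 0.0222 over 5 measures).

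This call rested on which wild-type libraries were the controls. The Columbia libraries of the first table had 21-nt strand ratios of 2.88 and 0.893 with the WT hairpin, above and below every mutant library, and of 0.180 and 0.148 with the G:U hairpin, below every mutant library. With them added to the controls the log2 difference was -0.27 (exact stratified permutation p = 0.343, adjusted p = 0.529). Without Col-0 WT library 15 it was -0.40, without Col-0 G:U library 12 -0.50 and without G:U library 13 -0.67. Their exact test adjusted p were 0.111, 0.0667 and 0.0667. The unadjusted p of 0.0667, 0.04 and 0.04 were each the least possible with that library left out. Only the G:U hairpin entered without Col-0 WT library 15, where the test could not pass, so nothing follows from that loss. Losses without Col-0 G:U library 12 or 13 came only with adjustment over the 5 measures, and their cause was not tested. The titles give the mutant libraries other numbers than the Col-0 libraries, and if these mark transgenic lines, background and line cannot be told apart. A single mutant cannot go below p = 0.0556 in the exact test, so the mutants are described rather than called one by one. The log2 differences from Col-0 were -0.60 (WT) and -0.38 (G:U) in nrpd1a and -0.95 and -0.43 in ocp11.

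Among the libraries of the second table, the mutants had more 21-nt reads for each 22-nt read than Col-0 on both strands. The sense ratio given above was 3.19 in Col-0 against 5.71 to 7.23 in the 4 mutant libraries with the WT hairpin, and 4.29 and 4.39 against 5.45 to 8.61 with the G:U hairpin. No mutant library overlapped Col-0. The log2 difference was 0.88 for both mutants together, 1.02 for WT libraries and 0.73 for G:U libraries (exact stratified permutation p = 0.0133, adjusted p = 0.0222). The Columbia libraries had 4.53 and 4.58 with the WT hairpin, below every mutant library. Their 5.91 and 6.54 with the G:U hairpin lay inside the mutant range. Once they joined the controls, the difference was 0.58 and still passed (adjusted p = 0.00816, exact permutation p = 0.00163). Those controls count numbers 15, 12 and 13 once per table and join both tables, while all mutants are in the second. With Col-0 as the only control, the difference did not pass without Col-0 WT library 15 (0.73, exact test adjusted p = 0.111). Nor did it pass without Col-0 G:U library 12 or 13 (0.88 and 0.87, exact test adjusted p = 0.0667 each). The unadjusted exact p of 0.0667, 0.04 and 0.04 were again the least possible there.

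The antisense ratio of 21 to 22 nt was 4.28 in Col-0 against 8.51 to 13.9 in the mutants with the WT hairpin, and 4.64 and 5.31 against 5.77 to 8.76 with the G:U hairpin, again without overlap. With the WT hairpin nrpd1a was the higher mutant and with the G:U hairpin ocp11 was. The log2 difference was 0.95, from 1.38 for WT libraries and 0.52 for G:U libraries (exact stratified permutation p = 0.0133, adjusted p = 0.0222). The Columbia libraries had 23.7 and 8.27 with the WT hairpin, above and below every mutant library. With the G:U hairpin they had 5.86 and 7.11, inside the mutant range. With them added to the controls the log2 difference was 0.28 (exact stratified permutation p = 0.423, adjusted p = 0.529). Without Col-0 WT library 15 it was 0.52 (exact test adjusted p = 0.133), and without Col-0 G:U library 12 or 13 it was 0.99 or 0.90 (exact test adjusted p = 0.0667 each). Without that WT library no exact p can go below 0.0667. Without either G:U library the exact p was 0.04, the least possible.

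The ratio of the 21-nt to the 24-nt class did not pass the test between the mutants and Col-0 on either strand. On the sense strand the log2 difference was 0.88 (exact stratified permutation p = 0.0533, adjusted p = 0.0667). By mutant it was 1.37 in nrpd1a and 0.31 in ocp11 with the WT hairpin and 0.90 and 0.96 with the G:U hairpin. Without ocp11 WT library 11 the mean was 1.04 and passed (exact test adjusted p = 0.0208). With the Columbia libraries added to the controls, all libraries kept, it was -0.03. On the antisense strand the mutants had more 21-nt per 24-nt reads than Col-0 with the WT hairpin (2.73 to 7.16 against 1.64) and fewer with the G:U hairpin (1.99 to 3.50 against 3.95 and 4.23). The mean over the hairpins was 0.52 (exact stratified permutation p = 0.467), -0.54 without Col-0 WT library 15 and -0.64 with the Columbia libraries added.

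Libraries numbered 15, 12 and 13 appear in both tables, which are named as a 1st and a 2nd batch. The 21-nt strand ratio was lower in the second table at WT library 15 (1.95 against 2.88) and higher at G:U libraries 12 (0.342 against 0.180) and 13 (0.272 against 0.148). The hairpins therefore lay closer together in the second table, at 6.40-fold against 9.82-fold with WT library 17 included. The mean log2 difference was 0.42 (exact permutation within hairpins, p = 0.333, where 0.167 is the smallest possible). The 21-nt class was smaller relative to 24 nt on the sense strand at all 3 numbers, by -2.20, -1.45 and -1.44 on the log2 scale (mean -1.70, exact permutation p = 0.167). It was also smaller relative to 22 nt on that strand, by -0.51, -0.43 and -0.61 (mean -0.51, exact permutation p = 0.167). On the antisense strand the ratio of 21 to 24 nt was 34.9 in the first and 1.64 in the second table at WT library 15, a log2 difference of -4.41, while at G:U libraries 12 and 13 the differences were -0.50 and 0.04 (mean -1.62, exact permutation p = 0.333). The antisense ratio to 22 nt differed by -2.47, -0.14 and -0.62 (mean -1.07, exact permutation p = 0.167). Batch and plants cannot be told apart here.

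The 4 entries headed replicate of each library of the second table, taken as runs, gave their own spread at 21 nt. The labels do not say whether they are repeat runs, so which errors this spread covers is not known. The lowest and highest strand ratio among the runs of a library lay 0.03 to 0.18 apart on the log2 scale, the widest in nrpd1a WT library 3, the library with the fewest reads. In a chi-square test of 21-nt sense and antisense reads over runs, 3 of 11 libraries had an unadjusted p under 0.05, and the lowest Benjamini-Hochberg adjusted p was 0.117.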

How the data were processed

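Small RNA reads were tabulated in 15 EIN2 hairpin libraries, and 5 samples with GUS hairpins were not analysed here. The deposited values are raw read counts by strand, length and stem, as the file headers show. The tools named are cutadapt and Bowtie 1.0, with the TAIR10 build, per the submitters' processing notes. The sources used here do not give the mismatches allowed or the handling of reads that match both stems. Either could move reads between the stems or change which reads are counted. With both stems summed the hairpin difference in 21-nt strand ratio was -2.64 on the log2 scale. In the G:U libraries the other stem held at most 1.43% of sense and 0.556% of antisense 21-nt reads. Summing could therefore change little, and it cannot show the effect of mismatches or of reads that match both stems.

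Groups follow sample titles. The 4 entries headed replicate of each second-table library were taken as runs, summed and counted as 1 replicate. Nothing states that libraries came from separate plants, and p-values therefore reflect only how these libraries spread, which may be technical.

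Ratios of counts were taken on the log2 scale and compared with exact permutation tests, two-sided, in Python 3.11.15 with SciPy 1.17.1. Benjamini-Hochberg adjustment ran over the 13 hairpin measures, the 5 mutant measures, the 8 within-library tests and the 5 measures between tables, with a threshold of 0.05. The stratified test was checked on simulated data with an equal spread between libraries in every group. That spread was smaller than the one of the Columbia WT strand ratios at 21 nt (SD 1.19, log2 scale), which the check does not cover. The tables hold no genes. The ratios to 22 and 24 nt, and the antisense ratio to 23 nt, are given for every library, and others as group values or ranges. Members, measures and lists were chosen with earlier results of these data known. Alternatives were the stem, the scale, 1 run, the strata, the controls and each library left out.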

Additional observations from a re-analysis of the deposited data

Results flagged for a closer look

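Several ratios of the 21-nt class moved in opposite directions between backgrounds or hairpins, with every library of one side above and every library of the other below. None of these differences was itself tested, and each involves groups of 1 or 2 libraries. The antisense ratio of 21 to 24 nt was higher for G:U than WT in Col-0 by 1.31 on the log2 scale, against a single WT library, whereas the difference was -1.76 in Columbia (a gap of 3.07) and -1.15 in nrpd1a (a gap of 2.46). The antisense ratio of 21 to 22 nt differed by 0.21 in Col-0 against -1.12 in Columbia (a gap of 1.33) and -1.27 in nrpd1a (a gap of 1.48). The sense ratio of 21 to 20 nt differed by 0.76 in Columbia against -0.58 in Col-0 (a gap of 1.35) and -0.18 in nrpd1a (a gap of 0.94). Between both mutants and Col-0, the antisense ratio of 21 to 24 nt differed by 1.57 for WT libraries and by -0.54 for G:U libraries, a gap of 2.11.

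Reads of 21 nt on the stem that the comparisons did not use were present in all 8 G:U libraries, with no hairpin-free library to set them against. Sense reads on the WT stem made up a median of 0.591% of 21-nt sense reads (0.0979% to 1.43%, or 66 to 1996 reads). Antisense reads on the GU stem made up a median of 0.294% of 21-nt antisense reads (0.127% to 0.556%, or 14 to 483 reads). The highest sense percents were in Col-0 libraries 12 and 13, and the most sense reads in ocp11 library 6.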

How the results depend on the processing

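Of 436 values computed under the alternatives, 356 kept their direction and their side of the threshold, 54 no longer passed, 19 newly passed and 7 changed sign. The comparisons between tables could not pass under any setting, so their side of the threshold was fixed. The within-library calls of the WT hairpin were lost with each library left out, where the smallest possible p rises. The tally is therefore not a measure of robustness. The causes were not tested unless stated. The lower 21-nt strand ratio of the G:U hairpin kept its direction throughout. With the second table alone it was -2.43 on the log2 scale and did not pass. The same setting gave -1.86 for the antisense ratio of 21 to 23 nt and -0.10 for that of 21 to 24 nt, which no longer passed. It gave -1.57 for the excess over the 23-nt strand shift, also no longer passing, and the opposite sign for the excess over 24 nt (0.30) and the sense ratio of 21 to 20 nt (-0.25).

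With Col-0 as a further stratum, the sense ratio of 21 to 22 nt (0.30) and the excess over the 22-nt strand shift (-0.85) passed. The antisense ratio of 21 to 24 nt (-0.51) and the excess over 24 nt (-0.0440) did not. With same-numbered libraries of both tables averaged, those last measures were -0.79 and -0.26 and did not pass. Neither did the within-library gaps of WT libraries to 20 nt (0.51) and 22 nt (0.89) and of G:U libraries to 23 nt (-2.02), where fewer libraries raise the smallest p. Both stems summed let the antisense ratio of 21 to 22 nt (-0.81) and the excesses over the 20-nt (-0.61) and 22-nt (-1.06) shifts pass. So did shares in percent, with differences of -4.75, -10.7 and -18.05 percentage points. Run 1 alone did so for the antisense ratio (-0.83). In percent the sense ratio of 21 to 23 nt changed sign (0.0859) and the mutants' sense ratio of 21 to 24 nt passed (12.7). With the Columbia libraries among the mutants' controls, the strand ratio (-0.27) and antisense ratio of 21 to 22 nt (0.28) no longer passed, and the ratios of 21 to 24 nt changed sign on the sense (-0.0346) and antisense strand (-0.64).

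Leaving out 1 library at a time moved the hairpin difference in strand ratio between -2.92 and -2.35 and ended the call for 2 of 12 libraries. The antisense ratios spanned -1.06 to -0.55 against 22 nt, -3.18 to -2.51 against 23 nt and -1.49 to -0.75 against 24 nt, and the sense ratio to 22 nt 0.16 to 0.33. The excess shifts spanned -0.81 to -0.39 over 20 nt, -1.31 to -0.80 over 22 nt, -2.94 to -2.48 over 23 nt and -0.84 to -0.46 over 24 nt. Between mutants and Col-0, the strand ratio spanned -0.67 to -0.40, the ratios to 22 nt 0.73 to 0.94 (sense) and 0.52 to 1.01 (antisense), and those to 24 nt 0.78 to 1.04 and -0.54 to 0.66. Where a hairpin keeps no Col-0 library, only the other hairpin enters that comparison. Within WT libraries the gaps spanned 0.36 to 0.66 (20 nt) and 0.73 to 1.06 (22 nt), and within G:U libraries -0.0384 to 0.14 (22 nt) and 0.42 to 0.67 (24 nt).

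Library numbers 15, 12 and 13 recur in both tables. With the number as a replicate block, the differences between tables were the same (0.42, -0.51, -1.70, -1.07 and -1.62 for the strand ratio, then the sense ratios to 22 and 24 nt, then the antisense ratios). Their exact sign-flip permutation p were 0.500, 0.250, 0.250, 0.250 and 0.500, where 0.250 is the smallest possible. G:U libraries 12 and 13 gave a correlation of 0.0273 between the tables over 10 read classes. It rests on 2 libraries per table and cannot show whether same-numbered libraries share material. The main test between tables did not pair them. Between hairpins no paired analysis was possible because the groups compared share fewer than 2 numbers. Depth limits mainly nrpd1a WT library 3.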
